A study of Mus musculus with 2 samples.

Results

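Small leucine-rich proteoglycans are short secreted matrix proteins with a core of leucine-rich repeats, and 9 of their genes were followed here in sorted mouse lung fibroblasts: Bgn, Dcn, Lum, Fmod, Ogn, Omd, Prelp, Aspn and Podn. The genes were chosen by symbol, as members of the family, out of 16040 genes in the deposited table, and all 9 had a row. The bleomycin group was 1 library of lung fibroblasts from 3 mice, taken 14 days after bleomycin, a DNA-damaging drug that produces lung fibrosis in rodents, was given into the trachea. The saline group was 1 library from 3 mice at the same day after saline by the same route. All mice were of the Col1a2-EGFP strain, in which a green fluorescent reporter follows a type 1 collagen gene, and the cells analysed were fluorescent cells free of lineage markers, isolated by flow sorting. The labels state neither the age of the mice nor which lineage markers were used. The assay was SAGE (serial analysis of gene expression), in which a short tag near the 3′ end stands for each transcript.

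Many of these proteins bind collagen fibrils and set fibril diameter and spacing. Some carry chondroitin or dermatan sulphate chains, as decorin and biglycan do, and others carry keratan sulphate, as lumican and fibromodulin do. Decorin and biglycan also bind TGF-beta, and fragments or soluble forms of some members act on receptors of innate immune cells. In lung, the family is made largely by fibroblasts.

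The levels of the family came from tags, so the tag expected for each gene shows what was counted. For each member, the 3′-most CATG, the site at which the enzyme NlaIII usually used in SAGE cuts, was located in the reference transcript that carries the accession given in the table. The following stretch, 27 bases with the CATG in capitals, is the expected tag of the genes that the results turn on. These sequences are from GENCODE M21 transcripts on GRCm38 and not from the deposited file, which lists no tags.
Ogn: CATGactcattttctctgtgactgaac
Dcn: CATGacttattatgcaagctgaatata
Prelp: CATGttaactctgatacagcgtccgca
Bgn: CATGtctgacttccagctctcctgggc
Lum: CATGttatgattaatagttgatagcaa
Fmod: CATGaatggcggccaacctaaccaata
None of the tags of the 9 members was found in the annotated transcripts of another gene. The closest pair among the members and 3 related genes, Lum and Aspn, differed at 12 bases. The tag of Bgn starts 791 bases from the end of its transcript, and those of Ogn, Dcn, Prelp, Lum and Fmod between 47 and 350 bases from it.

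The bleomycin library held 1099840 counts and the saline library 1080798 counts. The 5 fibroblast markers Col1a1, Col1a2, Col3a1, Pdgfra and Pdgfrb summed to 18516 CPM (counts scaled to a common library size) in the bleomycin library and 8187 CPM in the saline library. Most of this sum was collagen and not the receptor genes. Pdgfra stood at 298 CPM in bleomycin and 464 CPM in saline, and Pdgfrb at 24.9 CPM in bleomycin and 27.4 CPM in saline. Ptprc, which encodes the leukocyte protein CD45, had 1 count in the bleomycin library and 0 counts in the saline library, and Epcam, an epithelial adhesion gene, had 0 counts in the bleomycin library and 1 count in the saline library. All 8 leukocyte markers with a row summed to 6 counts in the bleomycin library and 7 counts in the saline library. Endothelial markers differed more: 10 genes summed to 27.7 CPM in the bleomycin library and 462 CPM in the saline library. By the rule for calls given below, 8 of 8 tested were lower in bleomycin, against 8.52% of all genes tested. Pecam1, an endothelial adhesion gene, had 3 counts in the bleomycin library and 53 counts in the saline library. Kdr was at 0 in the bleomycin library and Emcn at 0 in both. Each group is 1 library, so no difference has a replicate check, and every test below compares the libraries and not the conditions.

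Taken as a family, the 9 genes were about 2-fold lower after bleomycin, and most of that difference lay in Dcn and Ogn. Their counts summed to 4826 in the bleomycin library and 9598 in the saline library, or 0.439% of bleomycin counts and 0.888% of saline counts. On the CPM scale the sum was 4451 (exact Poisson 95% interval 4327 to 4579) in bleomycin and 8754 (8580 to 8931) in saline. The ratio of bleomycin over saline was 0.508 (0.491 to 0.526). Intervals of ratios are exact 95% intervals, and all intervals cover counting error only. Without Dcn the ratio of the sum was 0.687 (0.657 to 0.719), and without Dcn and Ogn, a split made after their values were seen, it was 1.04 (0.989 to 1.10). In sorted pools, fewer cells of a type and less RNA per cell cannot be told apart.

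Of the 9 members, 8 reached the minimum of 10 counts over both libraries needed for a test. A gene was called when its exact binomial test gave a Benjamini-Hochberg adjusted p under 0.05 over all genes tested and its ratio was at least 2 in either direction. Ogn, Dcn and Prelp fell, Fmod rose, and Bgn, Lum, Podn and Aspn were not called. Among all 9369 genes tested, 8.52% were called lower, 8.08% higher and 16.6% either way, against 4 of 8 tested members. The members' median log2 ratio was −0.45, and that of all genes tested was 0.02. Among the 648 genes with at least 500 counts over both libraries, 20.1% were called.

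**Figure D1:**
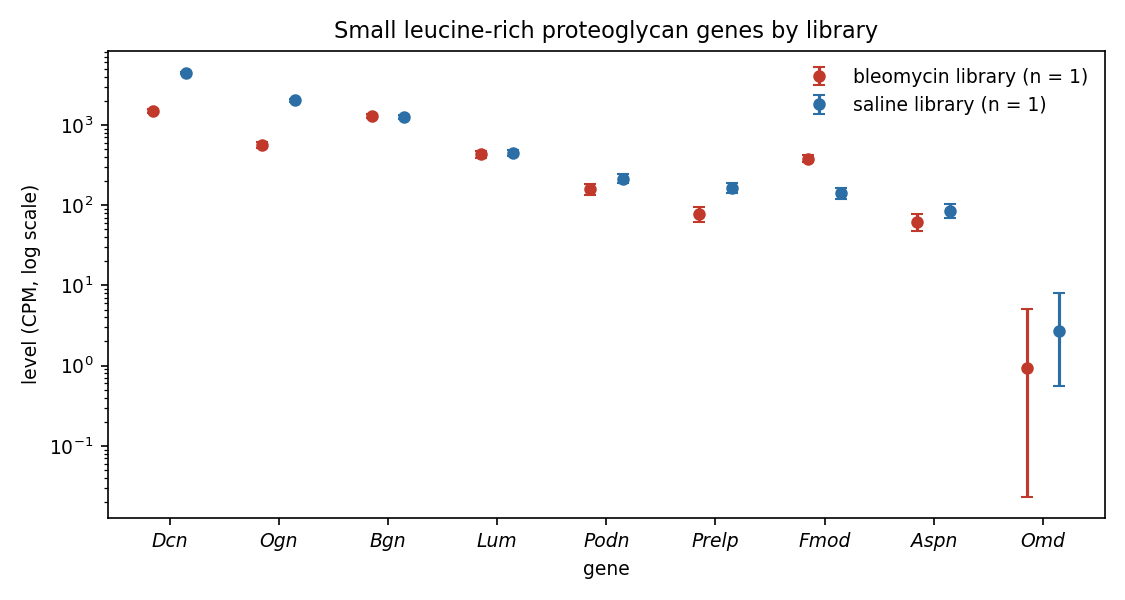
Level of each of the 9 genes in CPM (log scale) in the bleomycin library and the saline library, ordered by saline level; bars are exact Poisson 95% intervals and n is 1 library per group. Dcn stood at 1481 CPM in bleomycin and 4434 CPM in saline, whereas Bgn stood at 1297 CPM in bleomycin and 1250 CPM in saline.

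Among the class I members, which include the carriers of chondroitin or dermatan sulphate, Dcn differed strongly between the libraries and Bgn did not. Dcn encodes decorin, which coats collagen fibrils and limits their lateral growth. It had 1606 counts in the bleomycin library and 4861 counts in the saline library. It ranked 102nd of all genes in bleomycin and 16th in saline, and its level was 2.99-fold lower (2.83 to 3.17) in bleomycin. Bgn encodes biglycan, the closest relative of decorin, which also acts as a danger signal through Toll-like receptors once freed from matrix. It had 1406 counts in bleomycin and 1371 counts in saline, a ratio of 1.04 (0.962 to 1.12), so a change of over 1.12-fold upward lies outside its counting interval. Aspn encodes asporin, which binds collagen and TGF-beta and lacks the glycosaminoglycan chains of its relatives. It had 67 counts in bleomycin and 93 counts in saline, with a ratio of 0.729 (0.524 to 1.01).

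The counts of Bgn and Dcn therefore stood in different proportion in each library. There were 0.875 Bgn counts per Dcn count in the bleomycin library and 0.282 in the saline library, an odds ratio of 3.10 (2.82 to 3.41). Library size cancels in such an odds ratio, so this difference between members does not depend on how the libraries were scaled. Because SAGE takes 1 tag per transcript, counts were not divided by transcript length, but tags of different genes may be captured with different efficiency, so the proportions are of tags.

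The class II members, several of which can carry keratan sulphate, differed in both directions. Fmod encodes fibromodulin, which binds collagen at a site other than that of decorin and takes part in collagen crosslinking. It had 413 counts in the bleomycin library and 154 counts in the saline library and rose 2.71-fold (2.25 to 3.29), the single member called higher. Prelp encodes a protein with a basic amino-terminal stretch that binds heparan sulphate and links basement membranes to connective tissue. It had 84 counts in bleomycin and 181 counts in saline and fell 2.13-fold, with an interval of 1.64 to 2.79 that includes ratios under the required 2-fold. Lum encodes lumican, a regulator of fibril assembly best known from cornea. Its 466 counts in bleomycin and 488 counts in saline gave a ratio of 0.966 (0.849 to 1.10). Omd encodes osteomodulin, a member found mainly in bone. With 1 count in bleomycin and 3 counts in saline, at or below the 3 counts used as a floor in each library, it was not tested and no fold is given.

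The class III member Ogn had the lowest ratio of the tested members. Ogn encodes osteoglycin, also called mimecan, a small matrix protein first described in bone. It had 612 counts in the bleomycin library and 2212 counts in the saline library, and was 3.57-fold lower (3.27 to 3.92) in bleomycin. Its rank among all genes was 268th in bleomycin and 64th in saline. The class V member Podn encodes podocan, which binds type 1 collagen and restrains smooth muscle growth. It had 171 counts in bleomycin and 235 counts in saline, a ratio of 0.736 (0.601 to 0.900) that left out 1 but stayed within 2-fold and was not called.

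**Figure D2:**
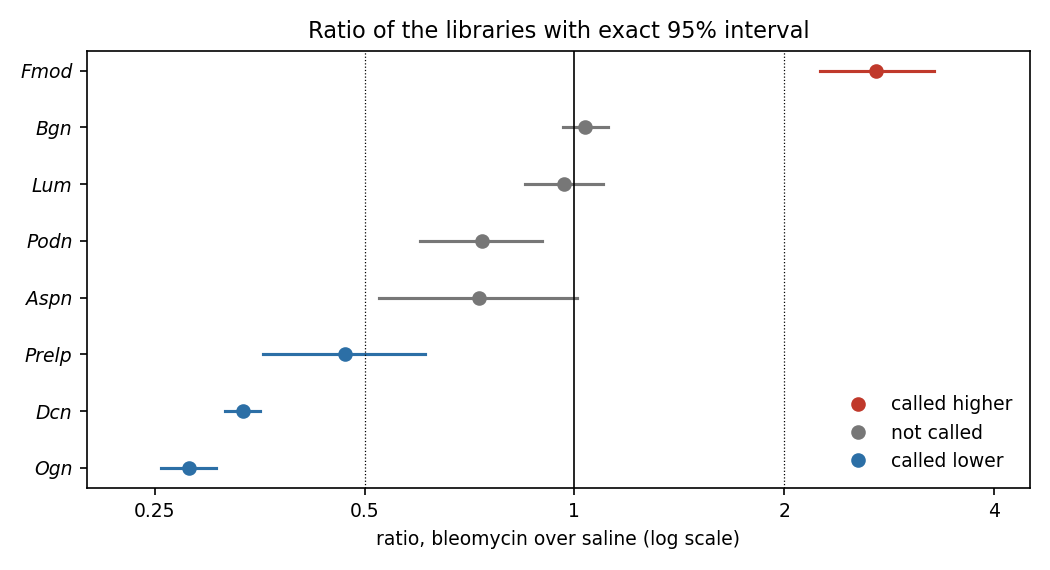
Ratio of the bleomycin over the saline library for the 8 tested members (log scale), with exact 95% intervals; dotted lines mark ratios of 0.5 and 2, and red, grey and blue mark called higher, not called and called lower. Ogn, Dcn and Prelp lie left of 0.5, Fmod lies right of 2, and the intervals of Bgn, Lum and Aspn include 1.

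The order of the members by tag level differed between the libraries. In the bleomycin library the order was Dcn, Bgn, Ogn, Lum, Fmod, Podn, Prelp, Aspn and Omd. In the saline library it was Dcn, Ogn, Bgn, Lum, Podn, Prelp, Fmod, Aspn and Omd. Among neighbours in the bleomycin order, the intervals of Lum and Fmod overlapped, as did those of Prelp and Aspn. In the saline order, those of Podn and Prelp and those of Prelp and Fmod overlapped. Fmod stood above Podn and Prelp at 381 CPM (345 to 420) in bleomycin and below both at 140 CPM (119 to 164) in saline.

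The make-up of the family's counts differed accordingly. Dcn held 33.3% (exact binomial 95% interval 31.9 to 34.6) of the 9 genes' counts in the bleomycin library and 50.6% (49.6 to 51.7) in the saline library. Ogn held 12.7% (11.8 to 13.7) in bleomycin and 23.0% (22.2 to 23.9) in saline. Bgn held 29.1% (27.9 to 30.4) in bleomycin and 14.3% (13.6 to 15) in saline, although its own level hardly differed. Fmod held 8.56% (7.78 to 9.38) in bleomycin and 1.60% (1.36 to 1.88) in saline, and Lum held 9.66% (8.84 to 10.5) in bleomycin and 5.08% (4.65 to 5.54) in saline. The share of Prelp was 1.74% (1.39 to 2.15) in bleomycin and 1.89% (1.62 to 2.18) in saline, and its fall was close to that of the family sum.

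**Figure D3:**
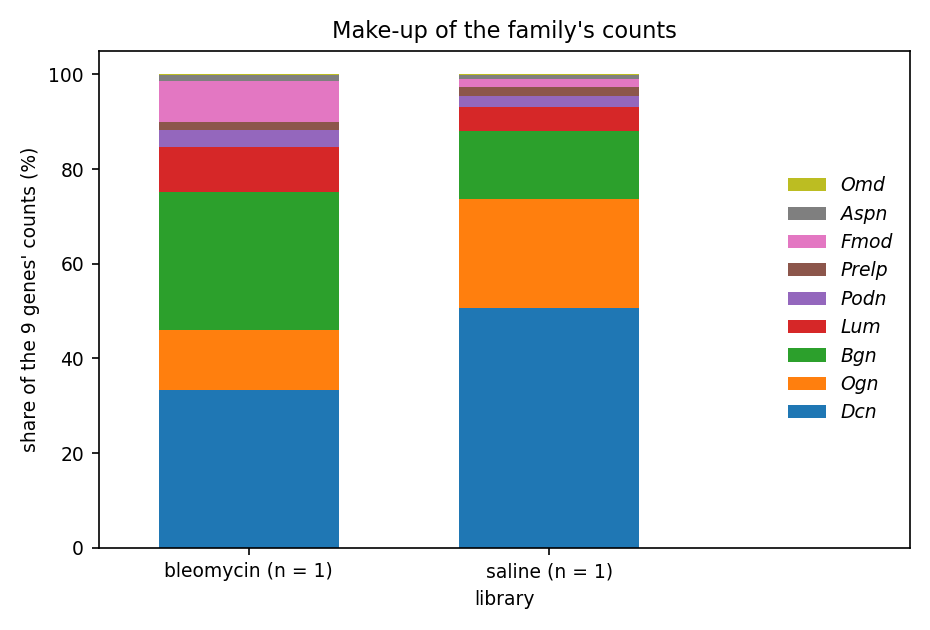
Share of the 9 genes' summed counts taken by each gene (stacked bars, %) in the bleomycin library and the saline library, 1 library each. The share of Dcn and Ogn is smaller and that of Bgn, Lum and Fmod larger in the bleomycin bar.

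Differences between members were compared for all 28 pairs of tested members, with intervals widened to 99.82% to allow for that number. In 20 pairs the widened interval of the odds ratio left out 1, and in 8 it did not. Fmod differed from each of the other 7 tested members. Its odds ratio was 2.61 (2.13 to 3.21, unwidened) against Bgn, the nearest in ratio, and 9.68 (7.86 to 12.0) against Ogn. Dcn and Ogn, both lower, also differed from each other, with an odds ratio of 1.19 (1.07 to 1.33) for Dcn over Ogn. Bgn and Lum did not differ beyond counting error, with an odds ratio of 1.07 and an interval of 0.924 to 1.25. Podn and Aspn gave 1.01 with an interval of 0.686 to 1.49, which allows a difference of almost 1.5-fold.

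**Figure D4:**
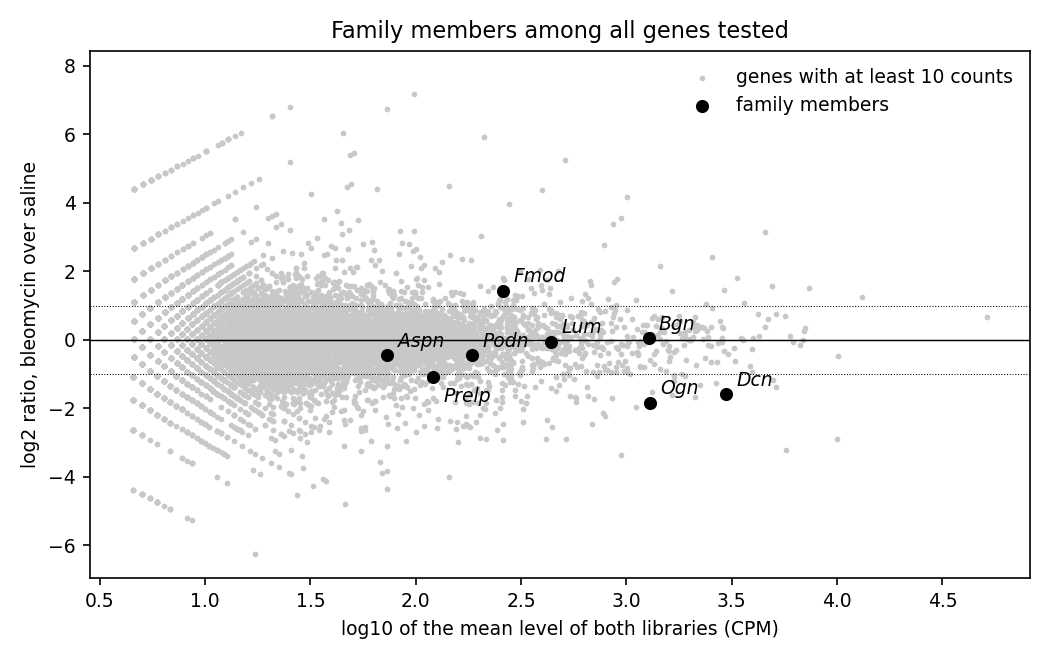
Log2 ratio of bleomycin over saline against the log10 mean level (CPM) for all 9369 genes tested (grey) and the 8 tested members (black); dotted lines mark 2-fold. Dcn and Ogn lie below the lower 2-fold line, at −1.58 and −1.84, and Fmod lies at 1.44.

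Several members are neighbours on a chromosome, a feature not used to choose them, and several neighbours differed in their ratio. Positions are from GENCODE M21 on GRCm38, since the processing notes name mm9 and the table gives no coordinates. Dcn and Lum lie next to each other on chromosome 10 on the same strand, 46984 bases apart. The odds ratio of Lum over Dcn was 2.89 (2.51 to 3.33). Prelp and Fmod are neighbours on chromosome 1 on opposite strands, 115839 bases apart, and Fmod over Prelp gave 5.76 (4.15 to 8.05). Optc, which encodes the family member opticin of the vitreous of the eye, lies 2304 bases beyond Prelp. It had 0 counts in bleomycin and 11 counts in saline and was at least 3.63-fold lower against the floor of 3 counts, with an exact limit of 2.48.

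On chromosome 13, Ecm2, Aspn, Omd and Ogn follow each other on the plus strand, with gaps of 11653, 14896 and 15223 bases. Ecm2, which encodes a leucine-rich matrix protein related to the family, had 32 counts in bleomycin and 148 counts in saline and was 4.57-fold lower (3.10 to 6.93). Aspn over Ogn gave an odds ratio of 2.60 (1.85 to 3.65), so within this row Aspn differed less between the libraries than Ogn. Aspn, Omd and Ogn lie within the span of Cenpp, a kinetochore gene on the other strand. Cenpp had 0 counts in both libraries. Of the other genes next to a member, 1 was called. Haus7, a spindle gene next to Bgn on the X chromosome, had 33 counts in bleomycin and 11 counts in saline and rose 3.03-fold (1.5 to 6.65). Scp2, a lipid transfer gene whose span overlaps that of Podn, had 306 counts in bleomycin and 174 counts in saline, a ratio of 1.78 (1.47 to 2.15) that was not called. Btg1, next to Dcn, Btg2, next to Fmod, and Echdc2, next to Podn, had ratios of 1.26 (1.11 to 1.42), 0.852 (0.748 to 0.970) and 1.62 (1.10 to 2.40) and were not called, nor was Nol8, next to Ogn, with 8 counts in bleomycin and 3 counts in saline. Atp2b3 and Slc1a7 had under 10 counts in all. The expected tags of the members are absent from annotated transcripts of other genes. Tag assignment and use of strand in counting are not stated, however, so reads of overlapping genes may not have been kept apart.

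Promoter windows of 7 members, 1 each and 2 for Podn, were matched by symbol in RefSeq sequences on GRCm38.p6, each running from 250 bases before to 50 bases after the gene start. Those of Ogn, which fell, and Fmod, which rose, are shown because they are the members with the lowest and highest ratio. Capitals mark matches to any of 5 motifs searched on both strands. These were TATAAA for the TATA box, TGANTCA for the factor family AP-1, GGGCGG for the box bound by Sp proteins, GGAATG for TEAD factors and GTCTAGAC for Smad factors.
Ogn, chr13:49607765-49608064, plus strand: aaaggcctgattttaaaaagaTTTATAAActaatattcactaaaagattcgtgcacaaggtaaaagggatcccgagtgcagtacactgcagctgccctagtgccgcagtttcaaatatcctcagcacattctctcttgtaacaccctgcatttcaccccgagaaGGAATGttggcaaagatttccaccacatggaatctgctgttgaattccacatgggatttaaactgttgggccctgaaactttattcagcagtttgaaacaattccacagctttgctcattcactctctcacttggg
Fmod, chr1:134037004-134037303, plus strand: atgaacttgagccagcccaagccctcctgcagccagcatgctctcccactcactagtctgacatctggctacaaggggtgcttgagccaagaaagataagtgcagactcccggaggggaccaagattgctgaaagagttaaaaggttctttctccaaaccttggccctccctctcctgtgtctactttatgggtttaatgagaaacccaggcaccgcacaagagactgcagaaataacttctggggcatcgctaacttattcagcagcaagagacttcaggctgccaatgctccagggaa
The Ogn window held overlapping TATAAA matches on both strands, starting at positions −229 and −227 from the gene start, and 1 GGAATG match at −86. The Fmod window held none of these letters. Of all 32851 windows in the RefSeq table, 13.6% held TATAAA, 7.81% TGANTCA, 35.7% GGGCGG, 14.7% GGAATG and 0.213% GTCTAGAC. Such matches describe the letters and are not binding sites. Windows of Prelp and Omd also held none, that of Bgn and 1 of the 2 Podn windows held GGGCGG matches, the other Podn window held none, and that of Aspn held TATA box matches.

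Of the rest of the family, Tsku, which encodes the secreted signalling inhibitor tsukushi, had 60 counts in the bleomycin library and 18 counts in the saline library and rose 3.37-fold (1.96 to 6.07). Chad, of cartilage, and Nyx, of retina, each had 1 count in bleomycin and 0 in saline. Epyc, Kera, Chadl and Podnl1 had no row in the table used here. The levels of these genes were far under those of Dcn: with Optc and Ecm2, the 5 listed genes summed to 86.7 CPM in bleomycin and 161 CPM in saline. Without Ecm2 the other 4 summed to 57.2 CPM in bleomycin and 26.4 CPM in saline.

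Collagens that the family binds moved mostly opposite to Dcn and Ogn. Of 12 tested collagen chains on that list, 7 rose and 1 fell, against 8.08% called higher and 8.52% called lower over all genes tested. Their median log2 ratio was 1.58. Col11a1, a minor fibrillar chain, had 26 counts in bleomycin and 0 in saline and was at least 8.76-fold higher (exact limit 6.63). Col12a1, which sits on the surface of fibrils, rose 6.37-fold (4.32 to 9.71), and Col1a1, a chain of type 1 collagen, 2.95-fold (2.83 to 3.09). Col14a1, a fibril-associated collagen that binds decorin, had 82 counts in bleomycin and 299 counts in saline and fell 3.61-fold (2.82 to 4.66).

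Set against type 1 collagen counts of the same library, every tested member except Fmod was lower in bleomycin beyond counting error. Those collagen counts were themselves 13538 in bleomycin and 4350 in saline, so a gene of unchanged level would also be lower on this scale. Col1a1 and Col1a2 stood at percentiles 94.3 and 95.8 of the log2 ratio among all genes tested. A lower proportion is therefore not particular to the family. Per 100 counts of Col1a1 and Col1a2 together there were 35.6 counts of the 9 members in the bleomycin library and 221 in the saline library, a 6.19-fold lower proportion (5.89 to 6.50). Dcn had 11.9 counts per 100 in bleomycin and 112 in saline, 9.42-fold lower (8.81 to 10.1). Bgn, whose level hardly differed, had 10.4 per 100 in bleomycin and 31.5 in saline, 3.03-fold lower (2.79 to 3.30). Fmod had 3.05 per 100 in bleomycin and 3.54 in saline, an odds ratio of 0.862 (0.712 to 1.05). Since Col1a2 drives the reporter used for the sort and was itself 3.47-fold (3.28 to 3.67) higher in bleomycin, the part of the gate in these proportions was not tested.

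Other partners and the enzymes that build the chains also moved in part. Calls in these and the following lists stand against 8.08% called higher and 8.52% called lower over all genes tested. Of 11 growth factors and matrix partners bound by the family, 5 rose and 2 fell, with a median log2 ratio of 0.86. Fn1, fibronectin, rose 8.83-fold (8.28 to 9.43) and Wisp1, a matricellular protein, 6.07-fold (4.11 to 9.26), whereas Tnxb, a tenascin that binds decorin and collagen, fell 8.90-fold (5.30 to 16) and Bmp4, a growth factor, 2.43-fold (1.72 to 3.47). Of 19 tested genes for chondroitin and dermatan sulphate synthesis, 5 rose and 1 fell, with a median of 0.39. Chpf, the most abundant of them, was lower but not called, at a ratio of 0.619 (0.525 to 0.728). The 22 genes with a row summed to a ratio of 1.08, and the 21 without Chpf to 1.48 (1.32 to 1.68). Chst11, a chondroitin 4-O-sulphotransferase, rose 8.80-fold (4.56 to 19.0) and Chsy3, a chondroitin synthase, 3.76-fold (2.05 to 7.34). Chpf2, a chondroitin-polymerizing factor, rose 2.28-fold (1.55 to 3.42). Xylt2, a xylosyltransferase that starts the chains, fell 2.45-fold (1.41 to 4.41). Dse and Chst14, which make dermatan sulphate, were not called, with ratios of 1.27 (0.941 to 1.72) and 1.10 (0.605 to 1.99). None of 4 tested genes for keratan sulphate synthesis was called. With 16.6% of all genes tested called either way, 4 genes are too few to show a lack of change. The most abundant, B4galt1, a galactosyltransferase, had a ratio of 1.61 (1.34 to 1.94).

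Among 8 tested proteases known to cut family members or their precursors, 3 were called higher and none lower. Their median log2 ratio was 0.39. Mmp3 was lower but stayed within 2-fold and was not called, at a ratio of 0.584 (0.521 to 0.654). Without Mmp2, the most abundant, the other 8 genes with a row summed to a ratio of 0.988 (0.933 to 1.05). Bmp1, which removes the propeptide of biglycan, rose 2.63-fold (1.96 to 3.56), and Mmp14, a membrane collagenase, rose 2.06-fold (1.79 to 2.37). Mmp13, a secreted collagenase, had 20 counts in bleomycin and 0 in saline and was at least 6.74-fold higher (exact limit 4.99). Of 9 tested receptors, 1 rose and 1 fell, which is near the shares of 8.08% higher and 8.52% lower over all genes tested. Their median log2 ratio was 0.50. Lrp1, the most abundant receptor, was lower but not called, at a ratio of 0.526 (0.477 to 0.580). The 12 receptors with a row summed to 1085 CPM in bleomycin and 1435 CPM in saline. Without Lrp1 the other 11 summed to 501 CPM in bleomycin and 325 CPM in saline. Cd44, a hyaluronan receptor, rose 3.01-fold (2.42 to 3.76) and Igf1r, an insulin-like growth factor receptor to which decorin binds, fell 2.26-fold (1.64 to 3.15). Of 7 tested large proteoglycans, with a median of −0.28, 1 rose and none fell, also near those shares. That gene, Prg4, lubricin, had 21 counts in bleomycin and 1 in saline, a ratio of 21.2 (3.42 to 878).

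Most markers of resident fibroblast types were lower in the same library as Dcn and Ogn. Of 12 adventitial fibroblast markers, 9 were called lower and none higher, with a median log2 ratio of −2.0. Of those not called, Mfap5 and Igfbp4 were higher in bleomycin, with ratios of 1.60 (1.43 to 1.80) and 1.19 (1.08 to 1.30). Ly6a, also not called, was lower at 0.740 (0.651 to 0.840). The 12 markers summed to 4048 CPM in the bleomycin library and 8522 CPM in the saline library, and Dpp4 alone was at 0 in bleomycin. Of 10 alveolar fibroblast markers, 9 fell and none rose, with a median of −1.79 and sums of 1960 CPM in bleomycin and 12223 CPM in saline, and none was at 0. Inmt, a methyltransferase gene, supplied 1104 CPM of that sum in bleomycin and 10327 CPM in saline. The other 9 summed to 856 CPM in bleomycin and 1896 CPM in saline, a ratio of 0.451 (0.417 to 0.488). Pdgfra, a receptor gene of lung fibroblasts, was not called at 0.642 (0.556 to 0.739). Of 2 tested mesothelial markers none was called, and 6 with a row summed to 136 CPM in bleomycin and 162 CPM in saline, with Msln at 2 counts in bleomycin and 3 counts in saline. Cartilage markers were near 0 in both libraries, at 11 counts in bleomycin and 4 counts in saline over 5 genes with a row.

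Markers of pericytes and smooth muscle were called in part. Of 5 tested pericyte markers 2 fell, and the 6 with a row summed to 110 CPM in bleomycin and 186 CPM in saline. Of 6 smooth muscle markers 3 fell and 1 rose, with sums of 888 CPM in bleomycin and 846 CPM in saline. Without Des, which encodes desmin and rose 3.42-fold (2.87 to 4.08), the other 5 summed to 362 CPM in bleomycin and 692 CPM in saline. Alveolar type 2 markers summed to 9.22 CPM in bleomycin and 150 CPM in saline over 7 genes, of which 5 were at 0 in bleomycin and 2 in saline. Sftpc, a surfactant gene, had 7 counts in bleomycin and 154 counts in saline, and the other 6 genes summed to 3 counts in bleomycin and 11 counts in saline. Of 2 tested airway markers both fell, and the list summed to 158 CPM in bleomycin and 536 CPM in saline over 6 genes. Most of this was Tppp3, a tubulin-binding protein gene, at 141 CPM in bleomycin and 488 CPM in saline. The other 5 airway genes summed to 16.6 CPM in bleomycin and 48.3 CPM in saline. The part of these cell types, and of the endothelial genes given above, in the ratios of the family was not tested.

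**Figure D5:**
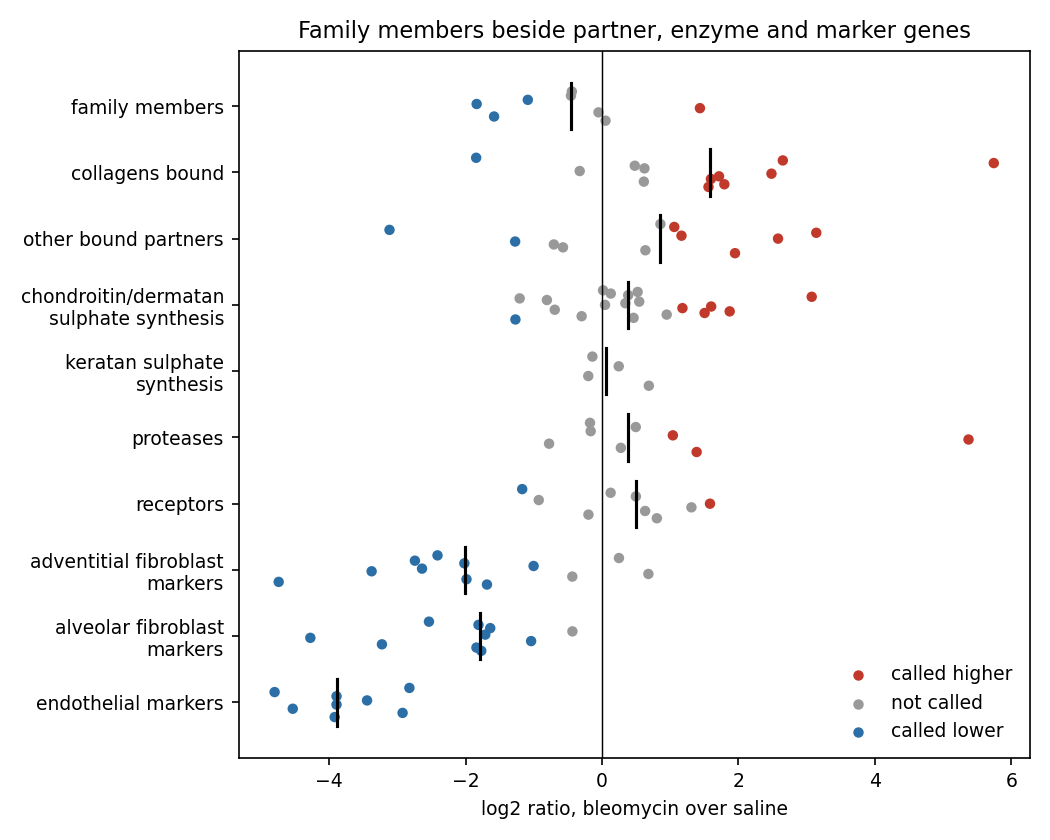
Log2 ratio of bleomycin over saline of each tested gene (points) on 10 gene lists, with the list's median (black bar); red, grey and blue mark called higher, not called and called lower. The members spread to both sides of 0, the collagens they bind have a median of 1.58, and resident fibroblast markers have medians of −2.0 and −1.79; points of genes at 0 in a library, such as Col11a1, depend on the 0.5 added to each count.

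The genes most like Dcn were sought by their log2 ratio among 482 other genes with at least 646.7 counts over both libraries, a set fraction of its own count. The nearest 5 were Timp3, an inhibitor of metalloproteases held in matrix, Ifi27l2a, an interferon-induced gene, Ier2 and Gadd45b, which are rapid-response genes, and Pim3, a kinase gene. Timp3 had 877 counts in bleomycin and 2733 counts in saline, a log2 ratio of −1.62 beside −1.58 for Dcn. Likeness here rests on 1 ratio between 2 libraries.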

How the data were processed

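The deposited table gives, per the labels, 1 SOLiD SAGE library each for bleomycin and saline as whole-number counts per gene, made by the authors from sorted cells. BWA 0.6.2 and the build mm9 appear in the submitters' processing notes. The sources used here do not state tag assignment, use of strand or scaling before deposit. The intervals assume unscaled counts and, as PCR copies were not marked, cover counting error only. After 1 blank line was left out, 16040 genes remained; 21 date-like symbols were recovered from descriptions, and 33 entries named by a phrase (0.86% of counts) matched no gene. Scaling used TMM factors from edgeR (version 4.0.16; R version 4.3.3), which were 0.986 in bleomycin and 1.01 in saline. A count is worth 0.922 CPM in bleomycin and 0.912 CPM in saline. The edgeR quasi-likelihood test needs replicates and could not be fitted. Genes with at least 10 counts over both libraries (9369) had a two-sided exact binomial test with Benjamini-Hochberg adjustment; for log2 ratios and calls, 0.5 was first added to both counts. Ratios have Clopper-Pearson intervals, and pairs of members conditional odds ratios. A gene at 0 was set against a floor of 3 counts in that library. Median-of-ratios factors came from DESeq2 1.42.0, and other computations used Python 3.11.15 with scipy 1.17.1. Members and lists were chosen with earlier results of these data known. Named were all members and related family genes, fixed cell markers and chromosome neighbours. Also named were up to 4 called genes of a list or else its most abundant, and the 5 genes nearest to the most abundant member in ratio. Dse, Chst14, Inmt, Tppp3, Des, Mfap5, Igfbp4, Ly6a and the genes of a list at 0 were named after their values were seen. The same holds for Chpf, Lrp1, Mmp2 and Mmp3.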

Additional observations from a re-analysis of the deposited data

How the results depend on the processing

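The 4 calls among the members, 3 lower and 1 higher, were also made with total counts, median-of-ratios factors, upper-quartile scaling, TMM without the 10 most abundant genes, no minimum count, a minimum of 50 counts, a prior count of 5, a ratio of 1.5 and Bonferroni adjustment. Some of these settings were no test of the calls. A ratio of 1.5 cannot remove a call made at 2, and the 4 called members all had more than 50 counts. A required ratio of 3 left 0 members higher and 1 lower (Ogn). Dcn was 2.99-fold lower (2.83 to 3.17), so it lies at that limit: its log2 ratio of −1.58 was −1.62 with total counts and −1.60 with median-of-ratios factors, both past 3-fold. Of 80 values of single members under the alternatives, 3 lost a call, all at the required ratio of 3, and none changed direction with a call. The minimum-count, ratio and Bonferroni settings leave the log2 ratio as it was. Direction could therefore change only under the other scalings and the prior count of 5. Over all genes, against 757 higher and 798 lower, a minimum of 50 counts left 396 and 484, a ratio of 3 left 443 and 445, and Bonferroni adjustment left 288 and 333. Without Dcn the family sum was 2970 CPM in bleomycin and 4320 CPM in saline. With 0.5 added to each count, all 28 pairs of members kept the direction of their odds ratio. No intervals go with those odds ratios, so the count of 20 differing pairs was not retested. The floor of 3 counts equals 2.77 CPM in bleomycin and 2.74 CPM in saline, and Omd, with 1 count in bleomycin and 3 counts in saline, was at or below it. Sums of gene lists without their most abundant gene were added after seeing the data. No replicate could be left out and no paired analysis was possible because each group has 1 library.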
